A study of Mus musculus with 3 samples.

Results

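The D and J segments of the antigen receptor loci were examined in 3 leukemias that lack miR-196b. A row was a member when its symbol named an immunoglobulin (Igh, Igk, Igl) or T cell receptor (Tra, Trb, Trd, Trg) D or J segment, and 85 of the 28074 named symbols matched. They comprised 4 J segments and 1 D segment of Igh, 5 J segments of Igk, 59 of Tra, 14 of Trb and 2 of Trd. Segments of Igl and Trg were not analysed here. Members were matched by symbol alone, but the set was chosen with earlier results of these data known.

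All 3 libraries came from spleens of different moribund mice with acute myeloid leukemia (AML) and form 1 group. The genotype field gives a homozygous miR-196b deletion (miR196b-/-), floxed Dnmt3a (Dnmt3afl/fl), the internal tandem duplication of the growth factor receptor Flt3 on both alleles (Flt3ITD/ITD), and Mx1Cre. The sample titles give Dnmt3a+/- instead. Mx1Cre is a Cre recombinase under an interferon-inducible promoter that is active in blood cells and in other tissues, so the deletion of floxed alleles is not limited to leukemic cells. Cells bearing the progenitor receptor c-Kit were enriched with magnetic beads after red cell lysis. Leukemias with intact miR-196b were not used here, so no effect of the deletion was tested, and every statement below concerns differences among mice 1, 2 and 3, whose numbers only name them. Dnmt3a stood at 52.2, 64.9 and 54.6 TPM in mice 1, 2 and 3, Flt3 at 146, 157 and 106 TPM, and Kit at 139, 149 and 133 TPM. TPM, a measure of transcript abundance, is a read estimate divided by transcript length and scaled to a common total. The labels name 30000000 planned reads of 150 nt per library, and the depth reached is unknown, so no counting interval can be given.

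Antigen receptor genes are assembled in developing lymphocytes from V, D and J segments by the recombinase RAG1 and RAG2, and the joined segment is spliced to a constant region. Heavy chain (Igh), Trb and Trd genes use D segments, while light chain (Igk, Igl), Tra and Trg genes join V directly to J. Loci that are opened for recombination can also be transcribed before any joining, and heavy chain D to J joins are known to occur in some cells outside the B lineage. A value for a J segment in bulk RNA does not show which of these transcripts it came from. Fewer lymphoid cells and less RNA per cell cannot be told apart either.

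The segments are shown first because their shortness bears on every value. The 4 heavy chain J segments lie on the minus strand of chromosome 12 (chr12:113428514-113429833, GRCm38, the assembly that mm10 names), with Ighj1 the farthest from the constant regions. The 5 kappa J segments lie on the plus strand of chromosome 6 (chr6:70722562-70723927). GENCODE M21 annotates each as a J gene whose J transcript is a single coding exon, and lists a second, non-coding transcript for Ighj2, Igkj2, Igkj3 and Igkj5. Their GENCODE sequences are printed 5′ to 3′, with the conserved J motif in capitals.
Ighj1: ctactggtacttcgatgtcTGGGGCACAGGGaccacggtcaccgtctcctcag
Ighj2: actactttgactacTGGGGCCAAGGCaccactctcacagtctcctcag
Ighj3: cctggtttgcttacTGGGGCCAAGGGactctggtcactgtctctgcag
Ighj4: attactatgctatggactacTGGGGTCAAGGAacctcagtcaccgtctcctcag
Igkj1: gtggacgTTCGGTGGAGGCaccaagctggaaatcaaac
Igkj2: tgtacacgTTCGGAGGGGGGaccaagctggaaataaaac
Igkj3: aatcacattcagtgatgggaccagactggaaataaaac
Igkj4: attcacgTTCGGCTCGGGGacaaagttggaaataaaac
Igkj5: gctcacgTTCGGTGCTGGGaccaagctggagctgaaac

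Capitals mark the first codon, TGG (tryptophan) or TTC or TTT (phenylalanine), followed without a gap by GGN, NNN and GGN, that is, by glycine codons around any codon. These letters mark the start of the last framework strand of the receptor chain. The 3 motifs exclude each other at a position, both strands were searched, and the reading frame was not checked. One of them was present on the coding strand in 65 of the 84 J members and on the other strand in none. In other GENCODE transcripts, 3.08% of the first 59 bases, the median member length, held any of the motifs on either strand. Of the 19 J members without it, 9 are annotated pseudogenes. Igkj3 was the only immunoglobulin J segment without these letters, and it is long known as a non-functional segment of the mouse kappa locus. The motif was present in 22 of the 27 J members with a value above 0 and in 43 of the 57 listed at 0 in all mice.

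Most D and J segments were listed at 0. Above 0 in at least 1 mouse were 27 of the 85 members (31.8%), against a background of 77.2% over all named symbols. Per mouse, 15, 12 and 16 members were above 0 in mice 1, 2 and 3 (14.3 ± 2.08, SD, n = 3), and 58 were listed at 0 in all 3. Every member above 0 was also at 1 TPM or more, a level reached by 53.8%, 53.8% and 53.3% of all symbols in mice 1, 2 and 3. The lowest member value above 0 was 2.42 TPM, while 35.1% of the values above 0 of other symbols were lower than that. Among 32 other symbols whose annotated transcripts were as short as the members, 9 (28.1%) were above 0 in at least 1 mouse. The share listed at 0 in all mice was thus near that of other features of their length. Above 0 in all 3 mice were 4.71% of the members and 15.6% of these other symbols. No test of either difference was made.

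**Figure D1:**
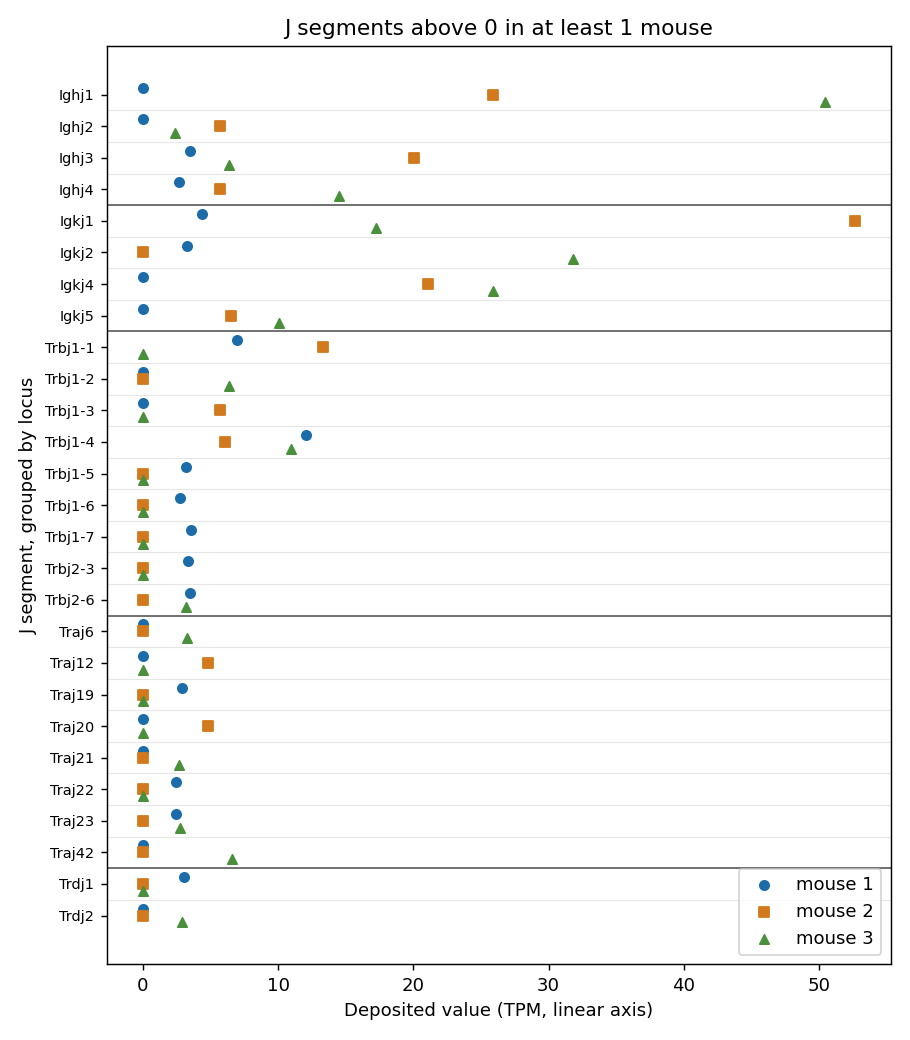
Deposited values (TPM, linear horizontal axis) of the 27 J segments above 0 in at least 1 mouse, grouped by locus with 1 point per mouse. The immunoglobulin segments reach 52.6 TPM and are lowest or at 0 in mouse 1, except Igkj2, while no T cell receptor segment exceeds 13.4 TPM.

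In mice 2 and 3 the highest values belonged to immunoglobulin J segments, while in mouse 1 they belonged to Trbj1-4 and Trbj1-1. Summed over the locus, the Igh segments stood at 6.15 TPM in mouse 1, 57.3 TPM in mouse 2 and 73.7 TPM in mouse 3 (45.7 ± 35.2, SD, n = 3). The Igk segments stood at 7.64, 80.2 and 85.1 TPM (57.6 ± 43.4, SD, n = 3). Relative to mouse 1, the Igh sum was 9.33 times as high in mouse 2 and 12 times in mouse 3, and the Igk sum 10.5 and 11.1 times. Each sum rested on only 2 segments in mouse 1, Ighj3 (3.50 TPM) and Ighj4 (2.65 TPM), and Igkj1 (4.37 TPM) and Igkj2 (3.27 TPM). These values lie near the lowest member value above 0 (2.42 TPM), so the ratios are imprecise. That lowest value also differed by mouse, at 2.43, 4.79 and 2.42 TPM in mice 1, 2 and 3, so the mice share no common floor. Mice 2 and 3 differed little in either locus, by ratios of 1.28 and 1.06. With 1 group there is no test of these differences, and the SD between mice was large against the mean.

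Of the 8 immunoglobulin J segments above 0, 7 were higher in both mice 2 and 3 than in mouse 1, and the count was again 7 after scaling the libraries to a common upper quartile. The background for this order is 24.3% of all symbols above 0 as deposited and 34.2% after that scaling. Ighj1, the first J segment of the heavy chain locus, was listed at 0 in mouse 1 and stood at 25.9 TPM in mouse 2 and 50.4 TPM in mouse 3. Ighj2 was likewise listed at 0 in mouse 1, with 5.70 and 2.42 TPM in mice 2 and 3. Both segments were above 0 in mice 2 and 3 alone. Ighj3 had 3.50, 20.0 and 6.37 TPM (9.96 ± 8.83, SD, n = 3) in mice 1, 2 and 3. Ighj4, the segment nearest the constant regions, had 2.65, 5.70 and 14.5 TPM (7.62 ± 6.16, SD, n = 3). Mouse 1 was the lowest for all 4, while the higher of the others was mouse 2 for Ighj2 and Ighj3 and mouse 3 for Ighj1 and Ighj4.

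Among the kappa segments, Igkj1 had the highest single value of any member, 52.6 TPM in mouse 2, with 4.37 TPM in mouse 1 and 17.3 TPM in mouse 3 (24.8 ± 25.0, SD, n = 3). Igkj2 had 3.27 TPM in mouse 1, was listed at 0 in mouse 2 and reached 31.8 TPM in mouse 3. The neighbouring segments Igkj1 and Igkj2 thus peaked in different mice. Igkj4 was listed at 0 in mouse 1 and stood at 21.1 and 25.9 TPM in mice 2 and 3. Igkj5, the last segment before the kappa constant region, was listed at 0 in mouse 1, with 6.52 and 10.1 TPM in the others. Igkj3, the segment without the J motif in the sequences above, was listed at 0 in all 3 mice. It is as long as Igkj1 and Igkj4, at 38 nt.

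Ighj1, Igkj1, Igkj4 and Igkj2 had the highest means of all members. Together they made up 12.8%, 57.8% and 63.5% of the summed member values in mice 1, 2 and 3. All immunoglobulin members made up 23% of the sum in mouse 1, 79.8% in mouse 2 and 80.4% in mouse 3. The whole set summed to 59.9, 172 and 197 TPM (143 ± 73.3, SD, n = 3), which is 0.00649%, 0.0187% and 0.0214% of all named values.

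**Figure D2:**
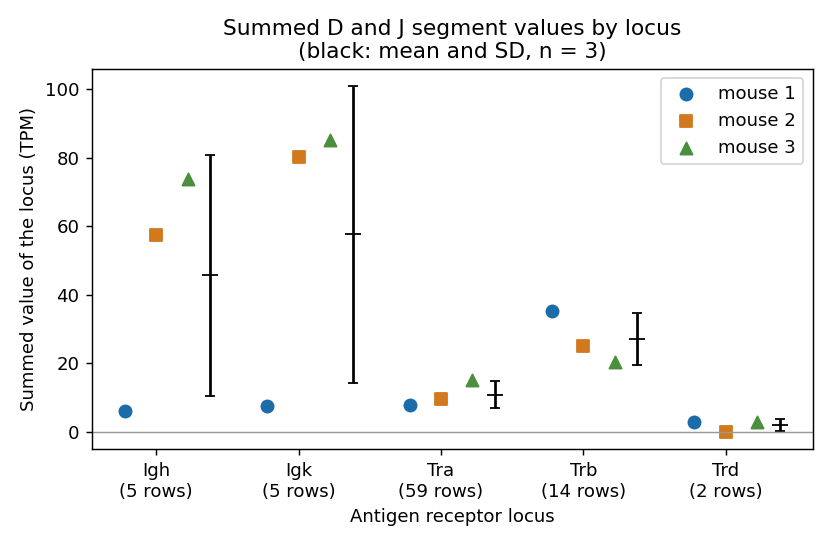
Summed D and J segment values per locus (TPM, vertical axis) with 1 point per mouse and, in black, the mean and SD of 3 mice. The Igh and Igk sums are 6.15 and 7.64 TPM in mouse 1 and at least 57.3 TPM in the other mice, while the Trb sum is highest in mouse 1 at 35.3 TPM.

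The D segments were represented by Ighd1-1 alone (chr12:113482170-113482192, GRCm38, minus strand), which was listed at 0 in all 3 mice. Its sequence is shown because its length sets it apart from the J segments.
Ighd1-1: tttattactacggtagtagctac

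Ighd1-1 is 23 nt long. The annotation holds 24 D symbols that match the rule, of 9 to 29 nt, and the other 23 were not analysed here. The submitters' processing notes name kallisto, which assigns reads by words of a fixed length, by default 31 nt, and the setting used is not given in the sources used here. A transcript shorter than the word holds no word to match. Of the members, 2 were shorter than 31 nt, Ighd1-1 and the pseudogene Traj1 (29 nt), and both were listed at 0 in every mouse. At the default setting, no D segment of these lengths could receive a value.

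The T cell receptor beta segments differed from the immunoglobulin segments in their order of mice. Their sum was 35.3 TPM in mouse 1, 25.2 TPM in mouse 2 and 20.5 TPM in mouse 3 (27.0 ± 7.57, SD, n = 3). After upper-quartile scaling it was 33.4, 25.2 and 21.7 TPM, in the same order. Of 14 segments 9 were above 0 in at least 1 mouse, 7 of them in mouse 1 and 3 each in mice 2 and 3. The locus has 2 clusters, each in front of its own constant region, at chr6:41533864-41535687 (Trbj1) and chr6:41542754-41543856 (Trbj2). All 7 segments of the first cluster had a value in at least 1 mouse, but only 2 of 7 in the second. The first cluster summed to 28.5, 25.2 and 17.4 TPM in mice 1, 2 and 3, and the second to 6.82 TPM in mouse 1 and 3.18 TPM in mouse 3, with all 7 of its segments at 0 in mouse 2. No test of the difference between the clusters was made.

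The T cell receptor segments with the highest means, Trbj1-4 and Trbj1-1, and a pseudogene segment with a value, Trbj2-6, are shown for comparison, with the motif again in capitals.
Trbj1-4: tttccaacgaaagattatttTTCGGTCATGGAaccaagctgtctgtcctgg
Trbj1-1: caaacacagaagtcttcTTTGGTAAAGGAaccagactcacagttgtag
Trbj2-6: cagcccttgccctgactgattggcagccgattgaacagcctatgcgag

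Trbj1-4 (chr6:41534811-41534861) was the only T cell receptor segment above 0 in all 3 mice, at 12.1, 6.11 and 11.0 TPM (9.72 ± 3.17, SD, n = 3). It also had the least spread of the 4 members above 0 in every mouse, 0.48 on the log2(TPM + 1) scale against 1.05 for Ighj4, 1.14 for Ighj3 and 1.66 for Igkj1. Trbj1-1 was listed at 0 in mouse 3, against 7.0 TPM in mouse 1 and 13.4 TPM in mouse 2. Trbj1-2 was above 0 in mouse 3 alone, at 6.37 TPM, and Trbj1-3 in mouse 2 alone, at 5.70 TPM. Trbj1-5 (3.16 TPM), Trbj1-6 (2.76 TPM), Trbj1-7 (3.54 TPM) and Trbj2-3 (3.32 TPM) were above 0 in mouse 1 alone. The pseudogene Trbj2-6, which lacks the motif, had 3.50 TPM in mouse 1 and 3.18 TPM in mouse 3. Trbj2-1, Trbj2-2, Trbj2-4, Trbj2-5 and Trbj2-7 were listed at 0 in all 3 mice.

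The T cell receptor alpha locus holds most of the members and had the fewest values for its size. Of 59 segments on chromosome 14 (chr14:54155005-54218842, plus strand), 8 were above 0 in at least 1 mouse and none in all 3. In mice 1, 2 and 3, 3, 2 and 4 segments were above 0, and the sums were 7.75, 9.58 and 15.3 TPM (10.9 ± 3.93, SD, n = 3). The highest was Traj42, at 6.60 TPM in mouse 3 alone. Traj23 had 2.43 TPM in mouse 1 and 2.75 TPM in mouse 3, the only alpha segment above 0 in more than 1 mouse. Traj19 (2.90 TPM) and Traj22 (2.43 TPM) were above 0 in mouse 1 alone, Traj12 and Traj20 (4.79 TPM each) in mouse 2 alone, and Traj6 (3.29 TPM) and Traj21 (2.65 TPM) in mouse 3 alone. Of the 8 segments, 5 are the neighbours numbered 19 to 23, in a locus numbered from 1 at the constant region to 61. All 9 annotated alpha pseudogenes were listed at 0 in every mouse.

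The delta segments, which precede the alpha segments on chromosome 14 (chr14:54123138-54136837), were each above 0 in 1 mouse. Trdj1 had 3.02 TPM in mouse 1, and Trdj2 had 2.88 TPM in mouse 3. Over all T cell receptor segments, 15 of the 19 above 0 had a value in 1 mouse alone, as did none of the 8 immunoglobulin segments. Over all members this makes 15 of 27 (55.6%), against 7.14% of all symbols above 0. All symbols are not matched for length. Of the 9 other symbols above 0 that are as short as the members, 5 were above 0 in all mice, as were 4 of the 27 members. None of the 19 T cell receptor segments was higher in both mice 2 and 3 than in mouse 1, against 24.3% of all symbols above 0. The 15 with a value in 1 mouse alone could not be. Lower in both were 9 (47.4%), near the 45.1% of all symbols above 0. Of these 9, 7 had a value in mouse 1 alone and were lower in both only through their zeros. After upper-quartile scaling 7 (36.8%) were lower in both, against 34.1%.

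The values of segments of equal length lay on a few common steps. A TPM is the estimated read number divided by the effective length, and rows of 1 length share that length in a library, so equal values mean equal estimated read numbers. Members with 1 annotated transcript (75 of 85) were compared within a mouse wherever 2 or more of the same length were above 0, which gave 8 classes with 18 values. In 5 classes every value was a whole multiple of the lowest, and in the other 3 of the lowest divided by 2, with a tolerance of 0.01. In mouse 1, Ighj3 and Trbj2-6, both of 48 nt, stood at 3.50 TPM and Trbj1-1 at 2.0 times that value. Trbj1-4 was 4.0 times Trdj1 in the same mouse, both of 51 nt. In mouse 2, Igkj1 was 2.5 times Igkj4, and in mouse 3 Igkj4 was 1.5 times Igkj1, so these pairs lay at 5 and 2 steps and at 3 and 2 steps. The largest number of steps was 5, and 8 of the 18 values were a single step. The step was set from the lowest value of each class. In the 5 classes of whole multiples that lowest value is therefore 1 step by definition. A step is thus the largest that the values of a class share, and the true counting unit could be smaller. Ighj2, Ighj4 and Trbj1-3, each with an annotated transcript of 54 nt, shared the value 5.70 TPM in mouse 2.

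**Figure D3:**
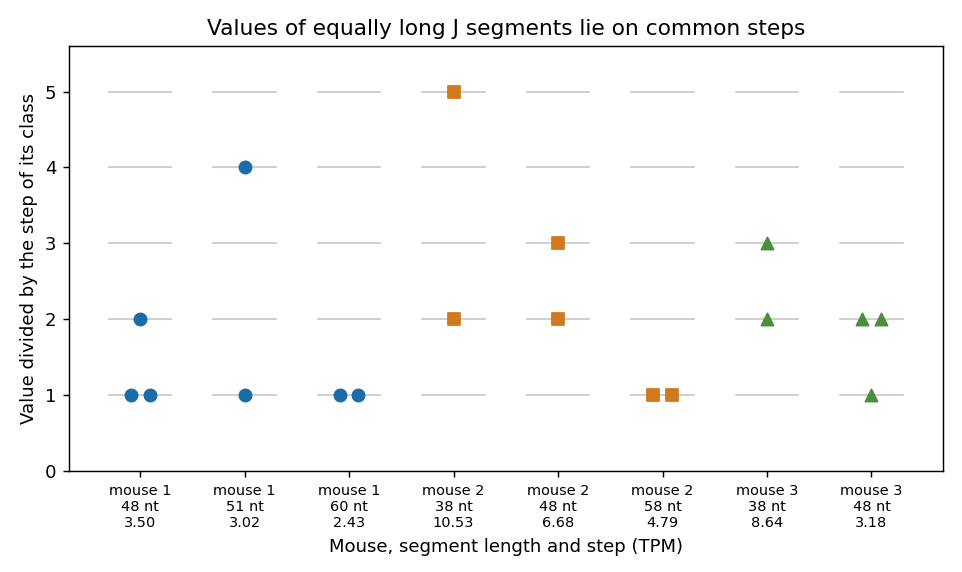
Values of J segments with the same length in the same mouse, divided by the step of their class (vertical axis), for 8 classes named by mouse, length in nt and step in TPM on the horizontal axis. Each of the 18 points sits on a grey line at a whole number, from 1 to 5 steps.

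The step differed between lengths and mice. For 38 nt it was 10.5 TPM in mouse 2 and 8.64 TPM in mouse 3, and for 48 nt it was 3.50, 6.68 and 3.18 TPM in mice 1, 2 and 3. Ratios between mice, such as those of the Igh and Igk sums, thus compare values with unequal steps. A single step of a 60 nt segment was 2.43 TPM in mouse 1, near the lowest member value of all. In mice 2 and 3, a difference of 1 step in a 38 nt kappa segment therefore moved its value by more than the highest value of any T cell receptor segment except Trbj1-1 and Trbj1-4. Of the 43 member values above 0, 21 were under 5 TPM and 13 were at 10 TPM or more.

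Length and locus went together among the members. The J segments of 30 to 39 nt were the 5 kappa segments and 2 of Tra, those of 40 to 49 nt were mostly Trb, and all 37 of 60 to 69 nt were Tra. Above 0 in at least 1 mouse were 4 of 7, 7 of 11, 11 of 27 and 5 of 37 in the classes of 30 to 39, 40 to 49, 50 to 59 and 60 to 69 nt. The remaining J segments, Traj1 (29 nt) and Traj61 (72 nt), were listed at 0. Length and locus cannot be told apart here. Segments of similar length gave no single order of loci. Among those of 50 to 59 nt, Ighj1 was the highest in mice 2 and 3 and Trbj1-4 in mouse 1. Among those of 48 nt, Trbj1-1 was above Ighj3 in mouse 1 and below it in mice 2 and 3. Every member was shorter than the 150 nt reads, and no word of 31 nt of any member occurred in a transcript of another gene on either strand.

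**Figure D4:**
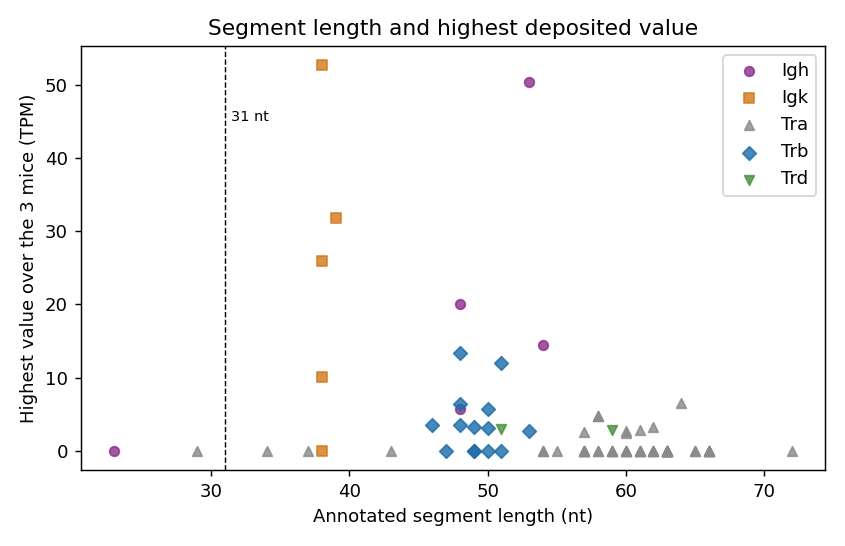
Annotated segment length (nt, horizontal axis) and highest value over 3 mice (TPM, vertical axis) of the 85 members, marked by locus, with a dashed line at 31 nt. The 2 members left of the line are at 0, and the highest values are Igkj1 at 38 nt and Ighj1 at 53 nt.

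The constant regions that J segments are spliced to were followed in the same libraries. Ighm, the constant region of the first heavy chain class, had 32.2, 76.8 and 108 TPM in mice 1, 2 and 3 (72.2 ± 38.0, SD, n = 3), and Igkc, that of the kappa chain, had 31.8, 45.7 and 146 TPM (74.5 ± 62.3, SD, n = 3). Both shared the low value of mouse 1 with the Igh and Igk segments, though at smaller ratios, 2.39 and 3.35 for Ighm and 1.44 and 4.59 for Igkc in mice 2 and 3 against mouse 1. The switched heavy chain constant regions Ighg1, Ighg2b, Ighg2c and Ighg3 stayed at or under 1.01 TPM, Ighe was listed at 0, and Iglc2 of the lambda chain had 1.60, 3.54 and 9.05 TPM. The T cell receptor constant regions Trac (0.889, 1.87 and 2.47 TPM), Trbc1 (3.22, 0.799 and 3.23 TPM) and Trbc2 (1.30, 2.83 and 3.59 TPM) did not share the order of the Trb segments, which were highest in mouse 1. In contrast, the gamma constant regions were high in mouse 1, with 501, 310 and 230 TPM for Tcrg-C1, 165, 56.1 and 30.6 TPM for Tcrg-C2 and 18.0, 11.5 and 6.23 TPM for Tcrg-C4. Of 13 constant regions above 0, 9 were higher in both mice 2 and 3 than in mouse 1 and 3 were lower in both. Over all symbols above 0 these shares were 24.3% and 45.1%. This count and those of the lists below were made on the values as deposited. Upper-quartile scaling moved the shares over all symbols to 34.2% and 34.1%.

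Of the recombination machinery, the recombinase gene Rag1 stood at 0.0102, 0.0534 and 0.160 TPM and its partner Rag2 at 3.53, 3.96 and 4.36 TPM. Dntt, which adds untemplated bases to the joins, had 2.10, 5.69 and 8.73 TPM, with mouse 1 the lowest. The highest genes of the list were the DNA-bending proteins Hmgb1 (378 ± 28.9 TPM) and Hmgb2 (183 ± 42.9 TPM) and the Ku subunit Xrcc6 (45.7 ± 2.73 TPM, all SD, n = 3), while the ligase gene Lig4 was at 1.59, 1.47 and 2.25 TPM. Of 15 genes of the list, 9 were higher in both mice 2 and 3 than in mouse 1 and 5 were lower in both. The shares over all symbols above 0 were again 24.3% and 45.1%. Of 9 receptor partner genes above 0, 7 were higher in both, among them Cd79a, a signalling chain of the B cell receptor (0.988, 1.69 and 2.26 TPM), while its partner Cd79b was lower in both (13.1, 8.94 and 10.1 TPM). Vpreb2, a surrogate light chain gene, and Ptcra, the pre-T alpha chain, were listed at 0 in all mice.

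Markers of lymphoid cells moved with the immunoglobulin segments in part. Of 9 B cell markers, 7 were higher in both mice 2 and 3 than in mouse 1, against 24.3% of all symbols above 0. Their sum was 23.3, 33.1 and 29.7 TPM, with Fcrla the highest of them (12.0, 18.4 and 13.0 TPM). Ms4a1 (0.493, 1.11 and 2.12 TPM) and Pax5 (0.486, 0.850 and 1.12 TPM) were low and lowest in mouse 1. Ebf1, the 1 marker lower in both, had 2.01, 1.87 and 1.60 TPM. Of 7 plasma cell markers, 5 were higher in both, with sums of 193, 155 and 142 TPM that rest on Xbp1, and Tnfrsf17 was at 0, 0.111 and 0.0981 TPM. Of 8 plasmacytoid dendritic cell markers, 7 were higher in both, with sums of 811, 1370 and 899 TPM that rest on Irf8, and Siglech was at 3.05, 3.55 and 3.78 TPM. None of the 9, 7 or 8 markers was listed at 0 in all mice. Their part in the immunoglobulin result was not tested.

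For the T cell receptor segments, 9 of 14 T cell markers were higher in both mice 2 and 3 and 4 were lower in both. Over all symbols above 0 these shares were 24.3% and 45.1%. The marker sums were 144, 85.6 and 78.6 TPM. Thy1, which other cells also carry, was the highest marker in each mouse (82.0, 32.0 and 23.3 TPM). Cd3e was at 0.317, 0.665 and 0.978 TPM. Lck (18.2, 14.5 and 16.4 TPM) and Lat (22.8, 10.9 and 10.6 TPM) were among the 4 lower in both. NK cell markers summed to 57.9, 93.2 and 64.3 TPM, with 2 of 7 higher in both and 3 lower in both. The part of these cells in the Trb order of mice was not tested. The 8 leukemic and progenitor genes had medians of 143, 145 and 120 TPM, with 2 higher in both and 2 lower in both. Higher in both were the monocyte receptor gene Csf1r (8.35, 15.6 and 24.8 TPM) and the integrin gene Itgam (13.4, 23.6 and 60.04 TPM), and lower in both were Cd34 (202, 141 and 137 TPM) and Cebpa (63.5, 43.7 and 37.2 TPM). The myeloid granule gene Mpo, a marker of the labelled leukemia type, had 1081, 864 and 1632 TPM.

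**Figure D5:**
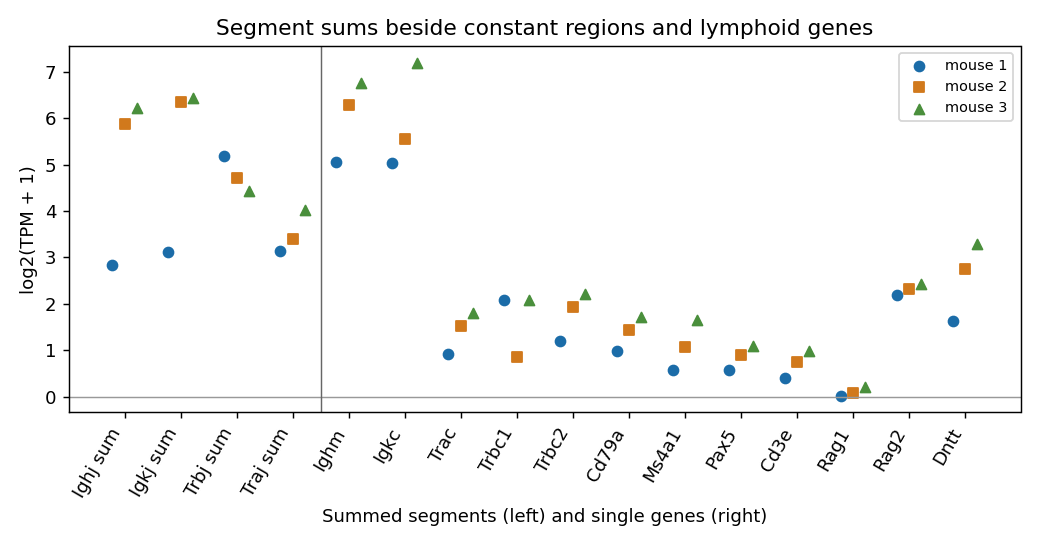
Summed J segment values by locus (left of the line) and single constant region, lymphoid and recombination genes (right), on the log2(TPM + 1) scale with 1 point per mouse. Mouse 1 is lowest for every sum and gene shown except the Trb sum, where it is highest, and Trbc1, where mouse 2 is lowest. The genes are a selection from the lists. Others of the same lists that are not shown were highest in mouse 1, among them Cd79b, Ebf1, Lck, Lat, Thy1, Tcrg-C1, Tcrg-C2 and Tcrg-C4.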

How the data were processed

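RNA from 3 leukemias was sequenced. The authors deposited 1 table of values per symbol. Its name calls them log2 FPKM, but the deposited values were linear, never below 0, and summed to nearly the same total per library (range 0.276% of the mean), so they were treated as TPM. The submitters' processing notes name kallisto and mm10. The version, the annotation and the strand setting are not given in the sources used here. The labels name both ribosomal depletion and an mRNA kit. A further 3 per-sample columns, of another series, were not used.

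Of 28987 rows, 795 without a symbol (0.584%, 0.532% and 0.608% of the sums in mice 1, 2 and 3) and 27 with a date in place of one were left out, and 90 symbols on several rows were summed, none of them a member. Lengths, coordinates and sequences came from GENCODE M21 (GRCm38), in which all 85 members and 93.5% of symbols were found. A row was called detected at 1 TPM, and log values are log2(TPM + 1). With 1 group there was no test between groups. The members, the gene lists and the rule for named genes were chosen with earlier results of these data known. That rule covered members above 0, constant regions, Rag1, Rag2, Dntt and up to 4 more genes per list by highest mean. Some genes named above, such as Ms4a1, Pax5, Ebf1, Cd3e, Siglech and Lig4, were outside it. The choice of the V segments and Tcrg-C3 was made with their values in view. A further preset marker gene is not reported here. The check for whole multiples was tested on simulated data, but the division of the lowest value was not. For the order of mice, only the share of random draws with mouse 1 lowest was simulated. Alternatives covered scaling, thresholds, the pseudocount and each mouse left out. Python 3.11.15, numpy 2.4.6, pandas 2.3.3 and matplotlib 3.10.9 were used.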

Additional observations from a re-analysis of the deposited data

How the results depend on the processing

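No paired analysis was possible because all 3 samples belong to a single group. The number of members detected fell from 14.3 per mouse to 7.33 at a threshold of 5 TPM, because 21 of the 43 values above 0 lie under it, and did not change at 0.1 TPM. Keeping only members with a mean of at least 1 TPM lowered the Trd sum from 1.96 to 1.01 TPM, since Trdj2 was then left out, and the Tra sum from 10.9 to 8.21 TPM. With a pseudocount of 0.1, 17 of 27 segment levels on the log2 scale moved by more than their spread, all 17 downward, since most hold a 0. Across the recomputations that each left out a mouse, the mean Igh sum ranged from 31.7 to 65.5 TPM and the Igk sum from 43.9 to 82.6 TPM, both highest without mouse 1. With 3 mice such a shift cannot exceed the SD, so it is no sign of stability. Without a known depth, counting error can be judged only from the steps between equally long segments.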

Other observations

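Other rows of the receptor loci were read beside the J segments, chosen after their values were seen. Of 26 V segments, 15 were above 0 in at least 1 mouse, with sums of 20.9, 7.62 and 28.6 TPM in mice 1, 2 and 3. The highest were the heavy chain segment Ighv1-73 (3.01, 3.03 and 9.61 TPM), Trav15-2-dv6-2, which both the alpha and the delta chain can use (11.0, 1.05 and 3.08 TPM), and the kappa segment Igkv4-71 (0.769, 0.982 and 7.82 TPM). Mouse 1 was the highest for the Trav segment, and mouse 3 for the Ighv and Igkv segments. The fourth gamma constant region listed, Tcrg-C3, had 3.82, 1.79 and 1.19 TPM, so all 4 Tcrg-C rows were highest in mouse 1.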
